A study of Canis lupus familiaris with 25 samples.

Results

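The genes described here encode the soluble factors that drive protein synthesis on the ribosome and the enzymes that charge tRNAs. They were taken as all probe sets of a canine Affymetrix array that name exactly 1 gene in the platform annotation and whose symbol begins with EIF and a digit from 1 to 6 or EEF1 or EEF2, or has the form of a tRNA synthetase (AARS1 to YARS2, and EPRS1). The rule found 225 probe sets of 89 genes, among 29264 probe sets of 15115 genes that name 1 gene. It looked at no measured value. Of the 89 genes, 80 were bright enough to be tested. The other 9 genes were AARS2, EEF1A2, EEF2K, EIF4E1B, EIF4E2, EIF4E3, EIF4EBP2, LARS2 and PARS2. EIF4G1, EIF4A1, EIF3C and GARS1 had no probe set under the rule and were not analysed here.

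The study set primary mammary carcinomas of dogs beside non-neoplastic mammary gland, with 1 array for each specimen. There were 25 arrays of 14 dogs, from 13 simple carcinomas that had already spread to a lymph node and 12 glands. In 11 dogs both tissues were measured, and these pairs carry the comparison. Dogs 1 and 9 gave a tumour alone, and dog 8 a gland alone. The dogs were 9 to 16 years old, the tumours measured 0.5 to 5 cm, and the survival after surgery that is given for 12 tumour-bearing dogs was 1 to 9 months. The ERa label reads "-" for all 13 tumours, and the HER-2 label reads "+" for 11 and "-" for 2. No treatment is named. Specimens were macrodissected, so each array reads a mixture of cells, and fewer cells of a type and less RNA per cell cannot be told apart.

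Translation starts when the ternary complex of eIF2, GTP and initiator tRNA binds the small ribosomal subunit with the help of eIF1, eIF1A and eIF3, and when the cap-binding complex around eIF4E brings the mRNA. eIF2B recharges eIF2 with GTP, and stress kinases block that step by phosphorylating the alpha subunit of eIF2. During elongation eEF1A delivers charged tRNAs, the eEF1B subunits recharge eEF1A, and eEF2 moves the ribosome along; aminoacyl-tRNA synthetases supply the charged tRNAs, with separate enzymes in mitochondria for most amino acids.

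Values are the deposited log2 signals of the brightest tested probe set of a gene. Signals of different probe sets are not on a common scale of abundance, so levels are compared between tissues and not between genes. Each difference is tumour minus gland within a dog, as the mean ± SD over 11 dogs. A member is said to have risen or fallen where the limma test with the dog as a block gave a Benjamini-Hochberg adjusted p under 0.05 over all tested probe sets. Among the 80 tested members 23 rose and 9 fell in the carcinomas, and 48 were not called. Over all 8885 tested genes 29.6% were called, 18.4% higher and 11.1% lower. The share that rose, 28.7%, was above that background and the share that fell, 11.2%, was near it. YARS2 passed the filter on low values through its tumours alone, and without it 22 of 79 rose. With the mean of adipocyte markers as a covariate, described at the end, no member and 0.0% of all tested genes were called, and the median of the members turned from 0.17 to -0.22. The median difference of the members was 0.17, against 0.10 for all tested genes, and single members ranged from -0.69 to 1.96. The members were higher in all 11 dogs in 9 cases and lower in all 11 dogs in 1 case, where 5.71% and 2.87% of all tested genes were.

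**Figure D1:**
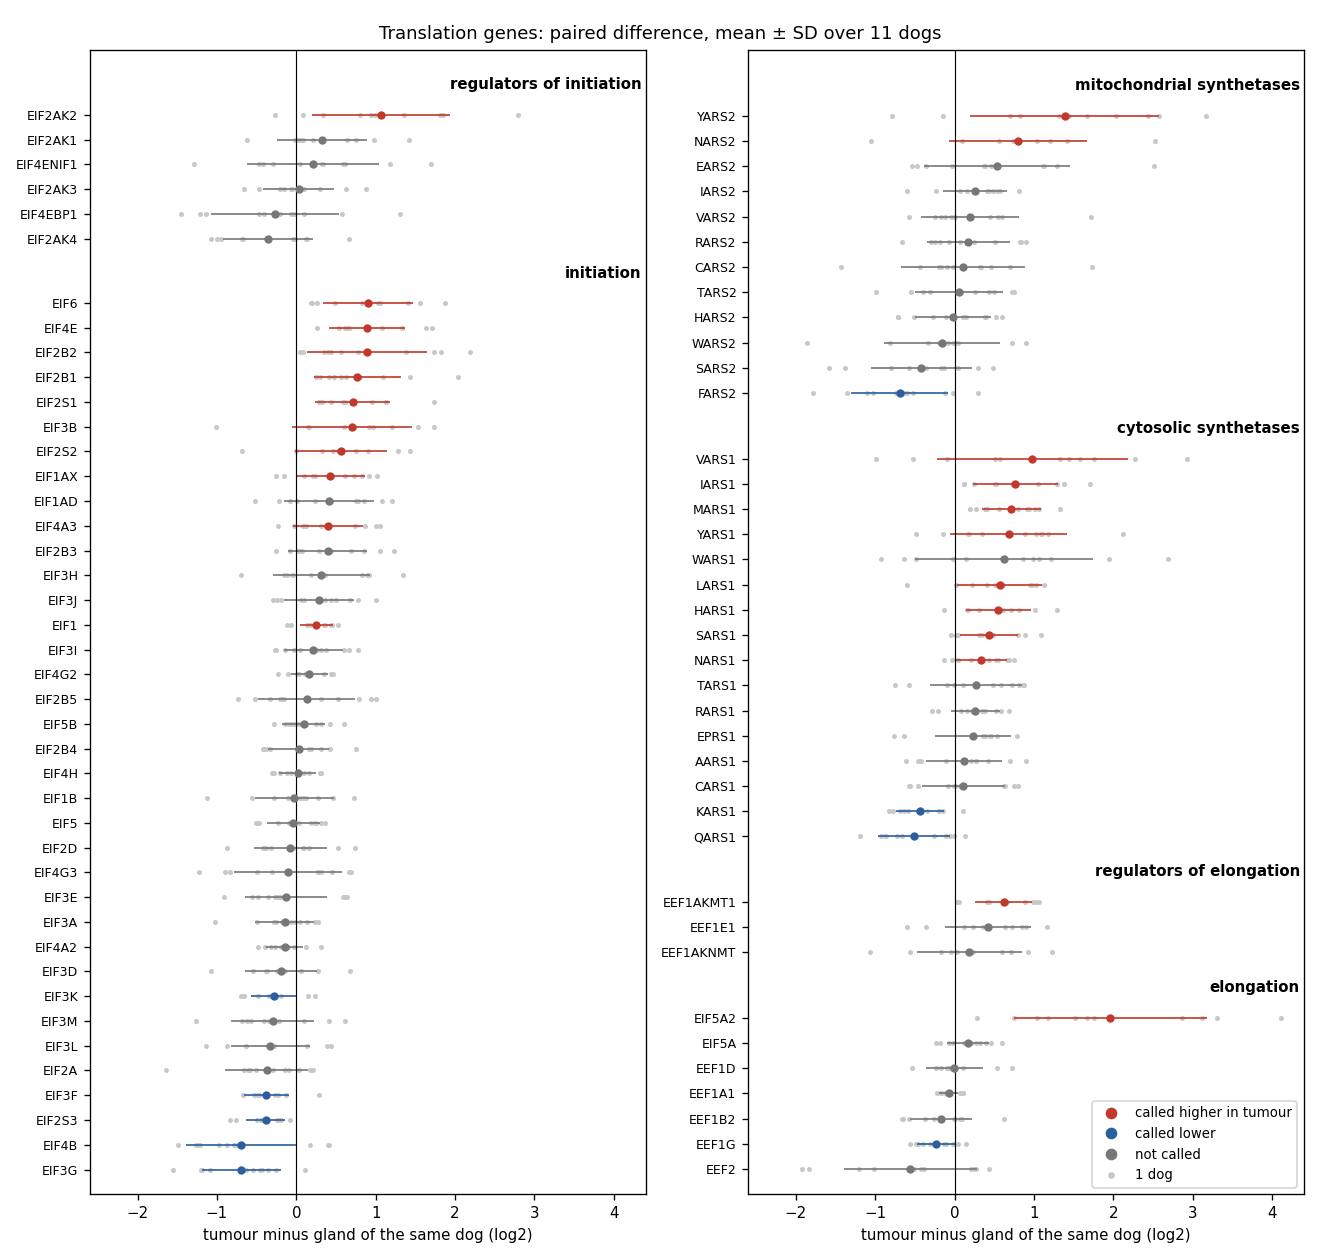
Paired difference (tumour minus gland, log2) of each of the 80 tested genes, grouped by role; small points are the 11 dogs, large points the mean and bars the SD, red where a gene was called higher, blue where lower and grey where not called. EIF5A2 lies farthest to the right with a mean of 1.96, and FARS2, EIF3G and EIF4B farthest to the left with a mean of -0.69.

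Of the 36 tested initiation factors 10 rose (27.8%) and 5 fell (13.9%), with a median difference of 0.06. Counted among these rises is EIF4A3, which carries an initiation factor name but is the helicase of the exon junction complex. Background shares over all tested genes were 18.4% called higher and 11.1% lower. EIF2S1, EIF2S2, EIF2B1, EIF2B2, EIF4E and EIF6 rose, while EIF2S3, EIF4B and 3 eIF3 subunits fell. The subunit groups used below were drawn up with these values known, and their counts are descriptions.

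EIF4E, the cap-binding protein, stood at 8.67, 9.84 and 10.24 in the glands (lowest, median and highest of 11) and at 9.60, 10.52 and 10.90 in the paired tumours. The tumours were higher in every one of the 11 dogs and 9 of them lay above all paired glands. EIF4E rose by 0.89 ± 0.48 (SD, n = 11; 1.85-fold; adjusted p = 0.00133). Its repressor EIF4EBP1, which binds eIF4E and keeps it from the cap-binding complex, lay at 9.61, 10.18 and 11.04 in the glands and at 9.37, 10.03 and 11.24 in the tumours. These ranges overlap almost fully, the difference was -0.27 ± 0.81 (adjusted p = 0.386), and 3 of 11 dogs were higher in the tumour.

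Of the other tested eIF4 genes EIF4A3 rose, EIF4B fell and 4 were not called. EIF4B, an RNA-binding helper of the eIF4A helicase, stood at 11.45, 11.73 and 12.50 in the glands and at 10.49, 10.99 and 12.05 in the tumours, with 7 tumours below every paired gland. EIF4B fell by 0.69 ± 0.70 (adjusted p = 0.0201), although 3 dogs were higher in the tumour. The helicase gene EIF4A2 differed by -0.15 ± 0.23 (adjusted p = 0.169), the scaffold genes EIF4G2 and EIF4G3 by 0.16 ± 0.24 (adjusted p = 0.133) and -0.10 ± 0.68 (adjusted p = 0.730), and EIF4H, another helicase helper, by 0.02 ± 0.23 (adjusted p = 0.892). EIF4A3, which carries the eIF4A name but is the helicase of the exon junction complex, rose by 0.40 ± 0.44 (adjusted p = 0.0432), and this call was lost without any one of dogs 2, 4, 6, 7, 10, 11 and 12, with adjusted p of up to 0.0888.

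**Figure D2:**
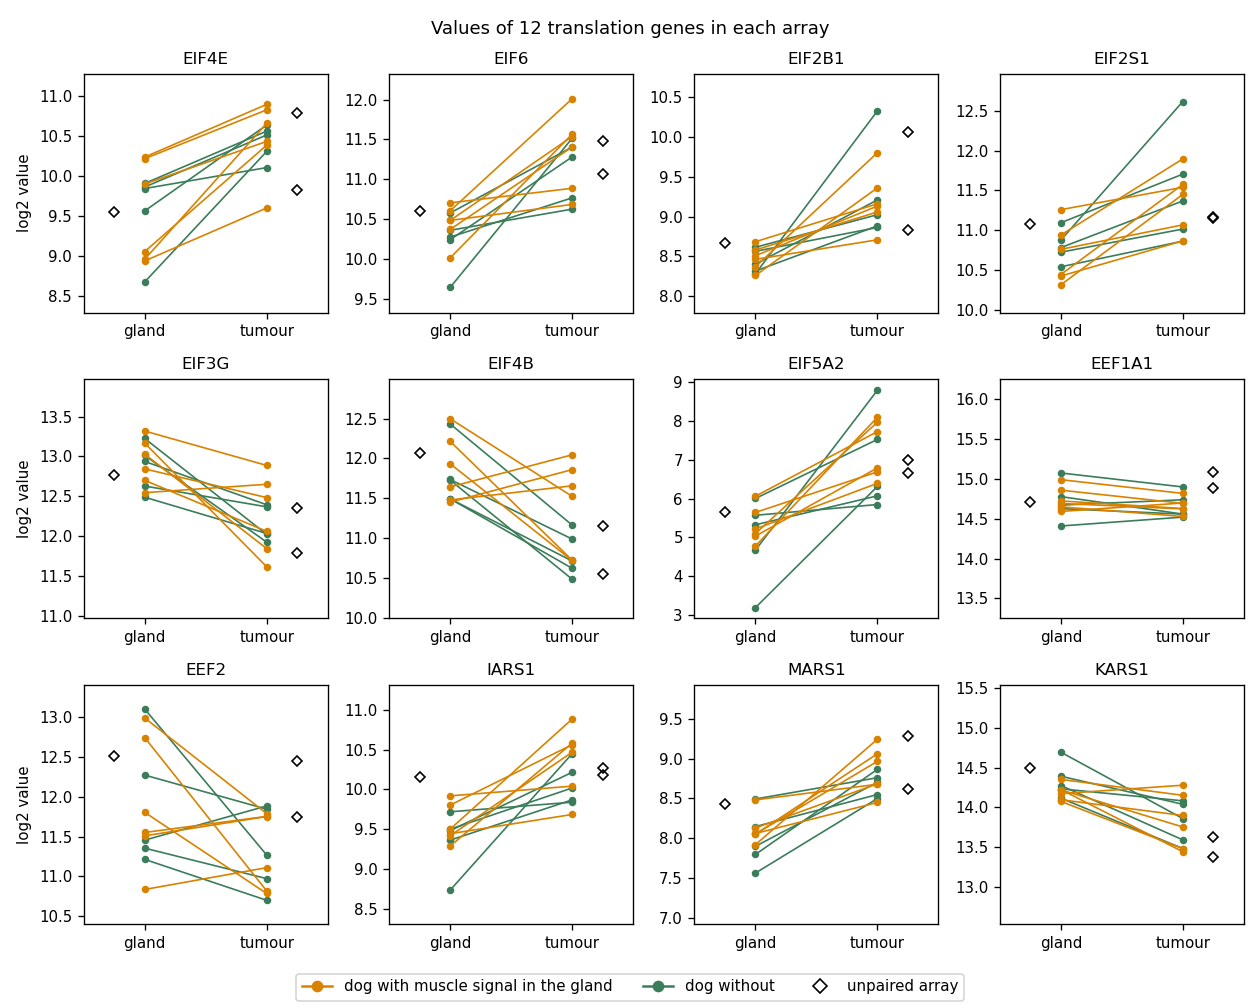
Log2 signal of 12 genes in gland and tumour of the same dog, 1 line per dog for the 11 paired dogs, coloured by muscle signal in the gland; open diamonds are the 3 unpaired arrays. EIF4E, EIF2B1, MARS1 and EIF5A2 go up in all 11 dogs, and EIF3G and KARS1 go down in all dogs but 1.

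Within the eIF2 heterotrimer the subunits went in opposite directions. EIF2S1, the alpha subunit that the stress kinases phosphorylate, stood at 10.32, 10.76 and 11.26 in the glands and at 10.86, 11.45 and 12.62 in the tumours. It rose by 0.71 ± 0.47 (1.63-fold; adjusted p = 0.00387) and was higher in all 11 dogs. EIF2S2, the beta subunit, rose by 0.56 ± 0.58 (adjusted p = 0.0242); 10 dogs were higher and dog 14 was lower by -0.68. Without dog 6, 7 or 11 the EIF2S2 call was lost, at an adjusted p of up to 0.0519. EIF2S3, the gamma subunit that holds GTP and the initiator tRNA, stood at 13.57, 13.77 and 14.08 in the glands and at 12.89, 13.46 and 13.86 in the tumours. EIF2S3 fell by 0.39 ± 0.24 (adjusted p = 0.00472), lower in all 11 dogs and the one member to be so, with both of its tested probe sets called lower. With the adipocyte covariate described at the end, EIF2S1 and EIF2S2 reversed their sign and EIF2S3 did not. No member was called in that fit.

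Of the 5 subunits of the exchange factor eIF2B, 2 rose and 0 fell, where 18.4% and 11.1% of all tested genes were called higher and lower. EIF2B1 stood at 8.26, 8.46 and 8.68 in the glands and at 8.71, 9.13 and 10.33 in the tumours. No tumour of the 11 pairs overlapped with a gland, which held for 0.709% of all tested genes and for 1 of the 80 members. EIF2B1 rose by 0.77 ± 0.55 (1.71-fold; adjusted p = 0.00567). EIF2B2 rose by 0.89 ± 0.76 (adjusted p = 0.0108), from 6.12, 6.86 and 7.51 in the glands to 6.72, 7.61 and 9.02 in the tumours, and was higher in all 11 dogs. EIF2B3 differed by 0.39 ± 0.50 (adjusted p = 0.0745), EIF2B5, which holds the catalytic site, by 0.13 ± 0.61 (adjusted p = 0.616) and EIF2B4 by 0.03 ± 0.38 (adjusted p = 0.872).

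The eIF3 scaffold, the largest initiation factor, had 12 tested subunits, of which 1 rose and 3 fell; the median difference was -0.17. EIF3B rose by 0.70 ± 0.75 (adjusted p = 0.0274), from 9.22, 10.00 and 10.91 in the glands to 9.90, 10.95 and 11.53 in the tumours. It was higher in 10 dogs and lower by -1.02 in dog 14, and its call was lost without dog 3, 4, 6, 10 or 12, at an adjusted p of up to 0.0627. EIF3G stood at 12.49, 12.94 and 13.32 in the glands and at 11.62, 12.06 and 12.89 in the tumours. The gland was higher in all dogs but dog 7, and 9 tumours lay below every paired gland. EIF3G fell by 0.69 ± 0.50 (adjusted p = 0.00442). EIF3F fell by 0.38 ± 0.28 (adjusted p = 0.00888), with all 3 of its tested probe sets called lower. EIF3K fell by 0.29 ± 0.29 (adjusted p = 0.0346), and was not called in 9 of the 11 fits that left out a dog, all but those without dog 7 and dog 12, with an adjusted p of up to 0.0730. EIF3H, with a difference of 0.31 ± 0.61 (adjusted p = 0.178), EIF3L, with -0.33 ± 0.50 (adjusted p = 0.103), and EIF3M, with -0.30 ± 0.53 (adjusted p = 0.152), were not called. The other 5 subunits that were not called ranged from -0.19 ± 0.45 for EIF3D, a cap-binding subunit, to 0.29 ± 0.44 for EIF3J, which is loosely bound, with EIF3A, the core scaffold subunit, at -0.15 ± 0.37, EIF3E at -0.13 ± 0.52 and EIF3I at 0.21 ± 0.37.

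EIF6, which keeps the large ribosomal subunit from joining too early and is needed to make it, had the largest mean difference of the initiation group. It stood at 9.64, 10.37 and 10.70 in the glands and at 10.62, 11.40 and 12.01 in the tumours, and 9 tumours lay above all paired glands. EIF6 rose by 0.90 ± 0.57 (1.87-fold; adjusted p = 0.00246) and was higher in all 11 dogs, from 0.18 in dog 14 to 1.87 in dog 6. The start codon selection factors EIF1 and EIF1AX rose by 0.25 ± 0.21 (adjusted p = 0.0225) and 0.43 ± 0.43 (adjusted p = 0.0356). The EIF1AX call was lost without any one of dogs 2, 3, 4, 10, 11 and 12, at an adjusted p of up to 0.0757. The GTPase activator EIF5 differed by -0.04 ± 0.33 (adjusted p = 0.812) and the subunit-joining factor EIF5B by 0.09 ± 0.27 (adjusted p = 0.500). The factors EIF2A and EIF2D, which can deliver tRNA without the eIF2 trimer, differed by -0.37 ± 0.52 (adjusted p = 0.0920) and -0.07 ± 0.46 (adjusted p = 0.718). EIF1AD and EIF1B, relatives of EIF1AX and EIF1, differed by 0.41 ± 0.57 (adjusted p = 0.106) and -0.03 ± 0.50 (adjusted p = 0.913).

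Of the 6 tested regulators of initiation, 1 rose and 0 fell, where 18.4% and 11.1% of all tested genes were called higher and lower. EIF2AK2 encodes PKR, the eIF2 kinase that responds to viral RNA and is induced by interferon. Its signal was low, at 2.98, 4.55 and 5.66 in the glands and 3.78, 5.47 and 7.45 in the tumours, and 5 glands and 1 tumour lay below log2 4, where the scale is compressed. EIF2AK2 rose by 1.07 ± 0.87 (adjusted p = 0.00866); 10 dogs were higher, up to 2.80 in dog 7. The other eIF2 kinases were not called: EIF2AK1, the heme-regulated kinase, differed by 0.33 ± 0.57 (adjusted p = 0.166), EIF2AK3, the kinase PERK of the endoplasmic reticulum, by 0.03 ± 0.45 (adjusted p = 0.904), and EIF2AK4, the amino acid sensor GCN2, by -0.35 ± 0.57 (adjusted p = 0.135). EIF4ENIF1, which carries eIF4E into the nucleus and to processing bodies, differed by 0.21 ± 0.83 (adjusted p = 0.527).

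Among the 7 tested elongation factors EIF5A2 rose, EEF1G fell and 5 were not called. Each direction thus held 14.3%, near the 18.4% and 11.1% of all tested genes called higher and lower. EIF5A2 and its paralogue EIF5A help the ribosome through stretches where peptide bonds form slowly. EIF5A2 stood at 3.20, 5.22 and 6.06 in the glands and at 5.85, 6.79 and 8.79 in the tumours. The tumours were higher in all 11 dogs, from 0.28 in dog 5 to 4.11 in dog 6, and 10 of the 11 lay above all paired glands. The gland of dog 3, at 3.20, lay below log2 4, so its part of the fold is uncertain; without dog 3 the difference was 1.85. EIF5A2 rose by 1.96 ± 1.21 (3.90-fold; adjusted p = 0.00162), the largest difference of the 80 tested members, and its second tested probe set gave 2.03. EIF5A, which is the widely expressed paralogue, stood at 10.25, 10.48 and 10.89 in the glands and at 10.16, 10.74 and 11.09 in the tumours, and differed by 0.17 ± 0.27 (adjusted p = 0.224).

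Of the core elongation factors and their exchange subunits EEF1G was the one called. EEF1A1 stood at 14.41, 14.69 and 15.07 in the glands and at 14.52, 14.63 and 14.90 in the tumours, with a difference of -0.07 ± 0.12 (adjusted p = 0.329). The tumour values lay inside the gland range. EEF1A1 also serves as a labelling control on this array: its 3′ control probe set had means of 15.56 in the glands and 15.42 in the tumours, the middle one 15.34 and 15.29, and the 5′ one was at background in both, at 2.32 and 2.35. EEF2, the translocase, stood at 10.84, 11.55 and 13.10 in the glands and at 10.70, 11.27 and 11.88 in the tumours. Its difference of -0.56 ± 0.84 ran from -1.92 in dog 10 to 0.43 in dog 2 and was not called (adjusted p = 0.0871). EEF1G, a subunit of the exchange factor for eEF1A, stood at 13.93, 14.17 and 14.69 in the glands and at 13.44, 14.04 and 14.38 in the tumours. EEF1G fell by 0.23 ± 0.24 (adjusted p = 0.0435), and this call was lost in the fits without dog 2, 3, 4, 5, 6, 10, 11 or 14, at an adjusted p of up to 0.0925. The other exchange subunits EEF1B2 and EEF1D differed by -0.17 ± 0.39 (adjusted p = 0.269) and -0.00 ± 0.36 (adjusted p = 0.987).

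EEF1A2 is the paralogue of EEF1A1 that replaces it in skeletal muscle, heart and neurons. It missed the filter, since it exceeded log2 4 in 5 paired arrays and 6 were required, so it has no test in the main comparison. In the 11 paired tumours it lay between 2.45 and 2.59. In the glands of the 6 dogs whose gland carried skeletal muscle transcripts, as set out below, it reached 4.18 in dog 7, 7.82 in dog 10, 7.34 in dog 11, 7.55 in dog 12 and 5.85 in dog 13, and was 2.57 in dog 14. The other 19 arrays lay between 2.42 and 2.66, so that EEF1A2 exceeded log2 4 in 5 of 6 muscle-bearing glands and in none of the 19 other arrays. Over the 12 glands the tested genes with the most similar pattern were ARRB2 (Pearson r = 0.928), MYOZ2 (0.923), NRAP (0.917), DES (0.916) and PRKCQ (0.916); the glands fall into 2 clusters on this pattern, and the values are descriptions.

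The regulators of elongation held 3 tested members, of which 1 rose, where 18.4% of all tested genes were called higher. EEF1AKMT1, a lysine methyltransferase of eEF1A, stood at 7.89, 8.28 and 8.78 in the glands and at 8.41, 8.83 and 9.27 in the tumours. EEF1AKMT1 rose by 0.62 ± 0.36 (adjusted p = 0.00472) and was higher in all 11 dogs. EEF1E1 was counted in this group but is a scaffold protein of the multisynthetase complex. It differed by 0.42 ± 0.54 (adjusted p = 0.0655), and EEF1AKNMT, another methyltransferase of eEF1A, by 0.19 ± 0.66 (adjusted p = 0.517). EEF2K, the kinase that inhibits eEF2, stayed between 1.95 and 2.13 in the paired arrays, which is the background of the array, so its probe set gives no level.

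The cytosolic tRNA synthetases had the largest share of rises among the 6 role groups: 8 of 16 rose, 2 fell, and 14 had a difference above 0. Their median difference was 0.39. Background shares over all tested genes were 18.4% called higher and 11.1% lower. Leaving out dog 2, 6 or 11 left 5 rises. With the adipocyte covariate 5 of the 8 risen enzymes (IARS1, LARS1, SARS1, VARS1 and YARS1) reversed their sign, none was called, and the group's median was -0.24. MARS1, which charges both initiator and elongator methionine tRNA, stood at 7.56, 8.05 and 8.49 in the glands and at 8.45, 8.70 and 9.24 in the tumours. It rose by 0.71 ± 0.37 (1.64-fold; adjusted p = 0.00246) in all 11 dogs, and 10 tumours lay above all paired glands. IARS1, the isoleucine enzyme, stood at 8.74, 9.48 and 9.92 in the glands and at 9.69, 10.21 and 10.88 in the tumours. It was also higher in all 11 dogs and rose by 0.77 ± 0.54 (adjusted p = 0.00477). VARS1, the valine enzyme, ran from 4.50 over 6.74 to 7.86 in the glands and from 6.22 over 7.56 to 9.41 in the tumours. VARS1 rose by 0.98 ± 1.20 (adjusted p = 0.0429), with 8 dogs higher, 2.93 in dog 6 and -0.99 in dog 14; the call was lost without dog 2, 3, 4, 6, 7, 10, 11 or 12, at an adjusted p of up to 0.0882.

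The remaining rises among the cytosolic enzymes were smaller. YARS1, the tyrosine enzyme, rose by 0.68 ± 0.74 (adjusted p = 0.0315), LARS1, the leucine enzyme that also senses leucine for mTORC1, by 0.57 ± 0.53 (adjusted p = 0.0194), and HARS1, the histidine enzyme, by 0.55 ± 0.41 (adjusted p = 0.0106). SARS1, the serine enzyme, rose by 0.44 ± 0.37 (adjusted p = 0.0195) and NARS1, the asparagine enzyme, by 0.34 ± 0.32 (adjusted p = 0.0336). The YARS1 call was lost without dog 2, 5, 6, 7, 10 or 11 and the NARS1 call without dog 2, 6, 10, 11, 12 or 13, at adjusted p of up to 0.0647 and 0.0720. WARS1, the tryptophan enzyme, which interferon gamma induces, was the most variable of those not called. It stood at 10.00, 10.33 and 10.84 in the glands and at 9.55, 11.05 and 12.89 in the tumours, and its difference of 0.62 ± 1.12 (adjusted p = 0.142) ran from -0.92 in dog 4 to 2.69 in dog 7. EPRS1, the joint glutamate and proline enzyme, lay at 11.11, 11.51 and 12.51 in the glands and 11.48, 11.89 and 12.07 in the tumours, with a difference of 0.23 ± 0.48 (adjusted p = 0.235). RARS1 (0.26 ± 0.31, adjusted p = 0.0794), TARS1 (0.27 ± 0.58, adjusted p = 0.240), AARS1 (0.12 ± 0.48, adjusted p = 0.585) and CARS1 (0.11 ± 0.52, adjusted p = 0.647) were not called either.

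KARS1 and QARS1 fell although both enzymes sit in the multisynthetase complex with IARS1, MARS1 and LARS1, which rose. KARS1, the lysine enzyme, whose gene also encodes the mitochondrial form, stood at 14.07, 14.22 and 14.69 in the glands and at 13.44, 13.86 and 14.28 in the tumours. KARS1 fell by 0.43 ± 0.30 (adjusted p = 0.00496); 8 tumours lay below all paired glands, and all 4 tested probe sets were called lower. QARS1, the glutamine enzyme, stood at 10.84, 11.16 and 12.02 in the glands and at 9.98, 10.93 and 11.15 in the tumours. QARS1 fell by 0.51 ± 0.45 (adjusted p = 0.0175), and 1 dog of 11 was higher in the tumour. Of the 7 complex enzymes 3 rose and 2 fell, at a median of 0.26. Of the 9 cytosolic enzymes outside this complex 5 rose and 0 fell, at a median of 0.44. Over all tested genes 18.4% were called higher and 11.1% lower. The difference between these groups of enzymes was not tested.

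Of the 12 tested mitochondrial synthetases 2 rose and 1 fell, at a median of 0.14. Both shares were near the 18.4% and 11.1% of all tested genes called higher and lower. YARS2, the tyrosine enzyme, was near background in the glands, at 2.97, 3.43 and 4.59, and stood at 3.16, 4.74 and 6.34 in the tumours. In the glands 10 of 11 values, and in the tumours 1, lay below log2 4. YARS2 thus passed the filter through the tumours where it was high and had to differ. Its difference of 1.39 ± 1.19, higher in 9 dogs, is given as a description, and without it 1 of 11 mitochondrial synthetases rose. NARS2, the asparagine enzyme, rose from 5.09, 5.61 and 6.35 to 5.30, 6.37 and 7.62, by 0.80 ± 0.87 (adjusted p = 0.0320). Its call was lost without dog 3, 4, 5, 6, 7, 10, 11 or 13, at an adjusted p of up to 0.0687. FARS2, the phenylalanine enzyme, stood at 9.22, 9.50 and 10.15 in the glands and at 8.19, 8.84 and 9.86 in the tumours, with 8 tumours below every paired gland. FARS2 fell by 0.69 ± 0.61 (adjusted p = 0.0141). The 9 others ranged from -0.42 for SARS2 (adjusted p = 0.131) to 0.53 for EARS2 (adjusted p = 0.147), the serine and glutamate enzymes. Between them lay WARS2 at -0.16, HARS2 at -0.02, TARS2 at 0.05, CARS2 at 0.11, RARS2 at 0.18, VARS2 at 0.19 and IARS2 at 0.26. AARS2, LARS2 and PARS2 did not pass the filter, and their highest values on the paired arrays were 3.95, 3.30 and 2.93.

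**Figure D3:**
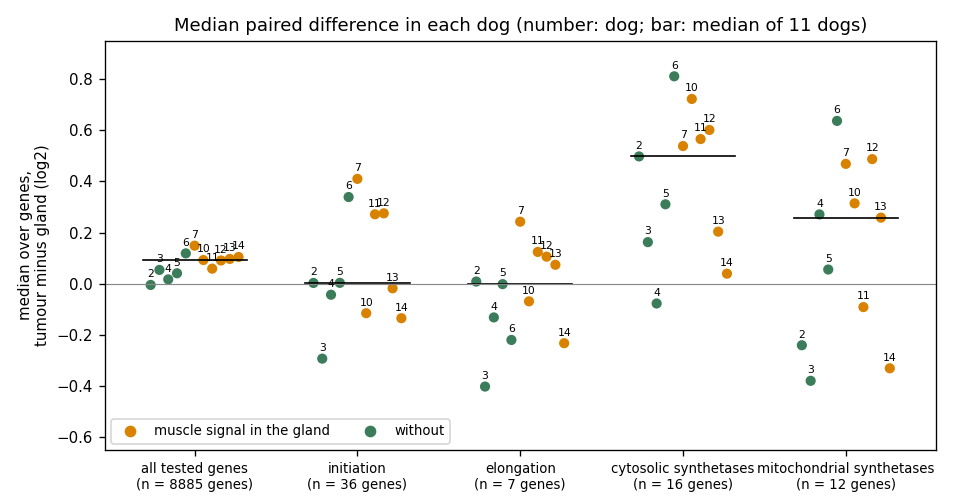
Median over the genes of a group of the paired difference (tumour minus gland, log2) in each of the 11 dogs, for all tested genes and 4 role groups; numbers name the dogs, bars are medians over dogs, and colours mark whether the gland carried muscle signal. The cytosolic synthetases lie above 0 in all dogs but dog 4, whereas the initiation and elongation medians fall on both sides of 0.

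Seen dog by dog, the cytosolic synthetases had a median difference from -0.08 in dog 4 to 0.81 in dog 6, with 10 of 11 dogs above 0 and 9 above the median of all tested genes in the same dog. The initiation factors ran from -0.29 in dog 3 to 0.41 in dog 7, with 6 dogs above 0. The elongation factors ran from -0.40 in dog 3 to 0.24 in dog 7, with 5 dogs above 0, and the mitochondrial synthetases from -0.38 in dog 3 to 0.64 in dog 6, with 7 dogs above 0. Over all tested genes this median stayed between -0.00 and 0.15. Dog 3 thus had the lowest median in 3 of these 4 groups.

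The differences were also set out by the brightness of the probe set, as a description with no test. Of the 15 members with a mean at or above log2 13 1 rose and 5 fell, with a median difference of -0.15, while all 263 tested genes this bright had a median of -0.01, with 13.3% called higher and 10.3% lower. EIF2S3, EIF3F, EIF3K, EEF1G and KARS1 are the 5 that fell, and EIF1 is the one that rose. Of the 13 members with a mean below log2 8 6 rose, YARS2 among them, and 0 fell, at a median of 0.53, against 0.11 for all tested genes of that brightness, of which 18.3% were called higher and 11.9% lower. The 19 members between log2 8 and 10 held 6 rises and 1 fall at a median of 0.21, where 18.4% and 10.4% of all tested genes were called. The 27 members between log2 10 and 12 held 9 rises and 2 falls at a median of 0.26, where 19.3% and 11.1% were called. The bin of 6 members between log2 12 and 13 is thinly filled.

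**Figure D4:**
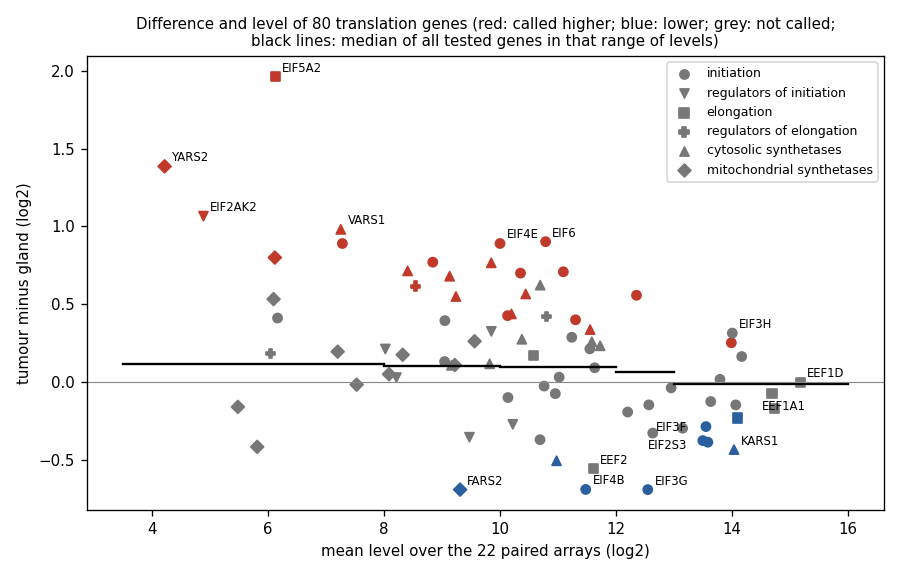
Difference (tumour minus gland, log2) of the 80 tested genes against the mean log2 signal of their probe set over the 22 paired arrays; shapes mark roles, colours the call, and black lines the median of all tested genes in 5 ranges of signal. Members above log2 13 lie mostly below 0, and the 6 called members below log2 8 all lie above 0.

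Most genes were read by several probe sets. Of the 179 tested probe sets of the members 53 were called higher and 20 lower, against 17.3% and 11.1% of all tested probe sets. Of the 24 called genes with several tested probe sets 17 had all of them called in the same direction, and none had a probe set called in the opposite direction. EIF1, EIF1AX, EIF4A3, IARS1, LARS1, SARS1 and QARS1 were called by their brightest probe set but had at least 1 other tested probe set that was not called. CARS1, EIF2AK1, EIF5A, EPRS1, IARS2, RARS1 and TARS1 were not called by their brightest probe set but had at least 1 other probe set called higher. For EIF5A the probe sets ranged from 0.17 to 0.86 and for CARS1 from 0.08 to 0.71. Close paralogues and pseudogenes of EEF1A1 and other bright members can share probes, and these values cannot separate them.

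The 3 arrays without a partner did not enter these tests. In the tumour of dog 1, 17 of the 23 risen members lay nearer to the paired tumour mean than to the gland mean, and so did 6 of the 9 fallen members. In the tumour of dog 9 the counts were 14 of 23 and 9 of 9. The gland of dog 8 lay nearer to the gland mean for 15 of the 23 and for 9 of the 9. That gland stood apart in its markers: its adipocyte mean of 6.63 was below that of all paired glands and tumours, and its endothelial mean of 5.74 was below that of all paired glands. For EIF5A2 the unpaired tumours stood at 6.65 and 7.00 and the unpaired gland at 5.65; for IARS1 they stood at 10.18 and 10.27, and the unpaired gland was at 10.15, above the highest paired gland.

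The partner genes of the pathway were taken from lists drawn up with earlier results of these data known. The lists in this paragraph had 20.0%, 22.2% and 23.1% of their tested genes called higher. These shares were near the 18.4% of all tested genes called higher, where 11.1% were called lower. Of the 5 tested genes of other cytosolic synthetases and scaffolds 1 rose: FARSA, the catalytic subunit of the phenylalanine enzyme, by 0.60 ± 0.62 (adjusted p = 0.0312). Of 9 genes of release, recycling and quality control 2 rose and 0 fell, at a median of 0.25. GSPT1, the GTPase eRF3 of termination, rose by 0.68 ± 0.64 (adjusted p = 0.0162), and ABCE1, which splits ribosomes for recycling, by 0.56 ± 0.66 (adjusted p = 0.0458). Of 13 mitochondrial translation factors 3 rose and 0 fell, at a median of 0.41. GFM1, the mitochondrial translocase, rose by 0.73 ± 0.58 (adjusted p = 0.00876), higher in all 11 dogs, and the release factor MTRF1L by 0.41 ± 0.31 (adjusted p = 0.0274).

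Of 9 tested genes of mRNA binding and cap-complex partners 0 rose and 1 fell, at a median of -0.16. Background shares over all tested genes were 18.4% called higher and 11.1% lower. PDCD4, which binds eIF4A and blocks its helicase, stood at 12.18, 12.95 and 14.27 in the glands and at 10.66, 11.86 and 12.46 in the tumours. It was lower in all 11 dogs, 10 tumours lay below every paired gland, and PDCD4 fell by 1.53 ± 0.55 (adjusted p = 0.000121), with all 3 tested probe sets called lower. Of 6 tested genes of mTORC1 and its inhibitors AKT1S1, an inhibitory subunit of mTORC1, rose by 0.89 ± 0.58 (adjusted p = 0.00420), and SESN1, a stress-induced inhibitor, fell by 1.10 ± 0.84 (adjusted p = 0.00510). MTOR itself differed by -0.30 ± 0.49 (adjusted p = 0.169).

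ATF4 is the transcription factor whose translation goes up when eIF2 is phosphorylated, and several synthetase genes are among its known targets. Of 12 tested genes of the ATF4 list 5 rose (41.7%) and 1 fell (8.3%), at a median of 0.52. Background shares over all tested genes were 18.4% called higher and 11.1% lower. Both largest rises were enzymes of mitochondrial folate metabolism. MTHFD2 stood at 3.99, 4.84 and 5.77 in the glands and at 6.89, 7.94 and 9.44 in the tumours, without overlap, and rose by 3.08 ± 1.18 (adjusted p = 0.000142). SHMT2 rose by 1.58 ± 0.68 (adjusted p = 0.000294). The stress-induced NUPR1 fell by 1.00 ± 0.80 (adjusted p = 0.00548). ATF4 itself stood at 12.91, 13.09 and 13.44 in the glands and at 12.61, 13.30 and 13.52 in the tumours, a difference of 0.03 ± 0.36 (adjusted p = 0.878).

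Markers of several cell types also differed in RNA level between the tissues. Over all tested genes 18.4% were called higher and 11.1% lower. Of 20 tested skeletal muscle markers 18 fell and 0 rose. Their mean was 8.59 to 10.42 in the glands of dogs 7 and 10 to 14. It was 3.71 to 3.84 in the other 5 paired glands and 3.08 to 3.98 in the tumours. The dogs were split on this same mean. A marker high in those 6 glands alone would pass the filter of 6 arrays and have to fall, so these values are descriptions. Of 9 tested adipocyte markers 6 fell, and their mean went from 9.66, 10.11 and 11.47 (lowest, median and highest) in the glands to 7.88, 8.73 and 10.54 in the tumours, lower in all 11 dogs; PLIN1 and AQP7 were below log2 4 in all paired arrays. All 6 basal and myoepithelial markers and 9 of 10 endothelial markers fell, while of 9 epithelial markers 0 were called, and their mean overlapped between glands (9.52 to 11.71) and tumours (7.99 to 12.22). Of 9 fibroblast markers 2 fell. No marker of T and NK cells (8 tested, median difference 0.64), of B and plasma cells (5 tested, 0.55) or of macrophages (8 tested, 0.46) was called by limma, and the T and NK marker mean was higher in the tumour of 8 dogs, at 4.95, 5.90 and 7.60 in the glands and 4.31, 6.40 and 9.45 in the tumours. EIF2AK2 and WARS1, which interferons induce, were not tested against these markers. All 8 tested proliferation genes rose, and their mean went from 5.41, 6.12 and 8.29 to 7.39, 9.91 and 10.59, higher in all 11 dogs. The part of these shifts in the differences of the translation genes was not tested, except where the muscle and fat markers could be entered as below.

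**Figure D5:**
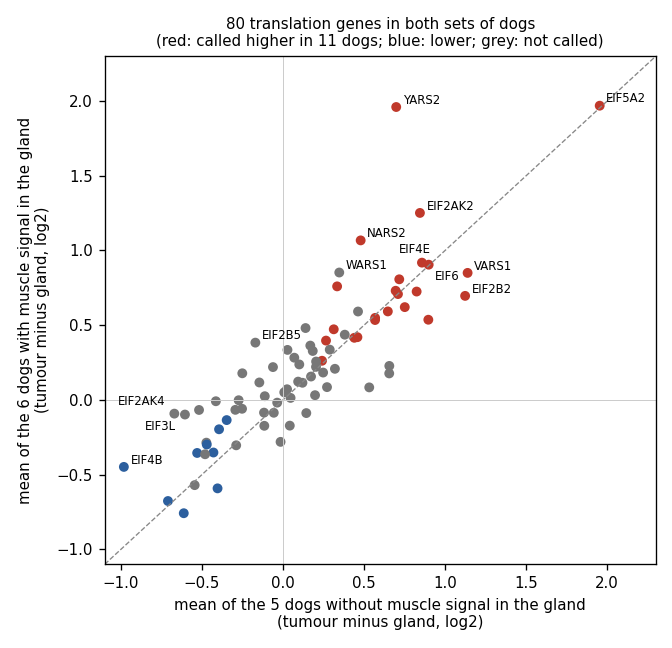
Mean paired difference (tumour minus gland, log2) of the 80 tested genes in the 6 dogs with muscle signal in the gland against the 5 dogs without; the dashed line marks equal values, and colours give the call over all 11 dogs. The points of all 32 called genes lie on the same side of 0 in both sets, and YARS2 lies farthest from the line, at 0.70 and 1.96.

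The 6 dogs with muscle in the gland gave a median difference of the members of 0.18, and the 5 dogs without gave 0.14. All 32 called members kept their sign in both sets, which are the same dogs that made the calls. For EIF5A2 the sets gave 1.97 and 1.95, for EIF6 0.90 and 0.90, and for EIF3G -0.68 and -0.71. Fitted alone, the sets called 3 members higher and 0 lower with muscle, and 0 higher and 1 lower without. Over all tested genes these fits called 2.93% higher and 3.11% lower with muscle, and 1.22% and 1.69% without, so the members' counts are near the background. The interaction of tissue with muscle signal was called for 0 of the 80 members by limma (smallest adjusted p = 1.00) and for 0.338% of all tested genes, and 0 members had an unadjusted p under 0.05, where 3.11% of all tested genes did. YARS2 had the largest interaction, 1.26 with an SE of 0.59. EEF1A2 missed the filter and is not among these 80 members. With no filter on low values its interaction was -3.34 with an SE of 0.90 (limma adjusted p = 0.987). With the muscle marker mean as a covariate no member was called, where 2.05% of all tested genes were called higher and 1.43% lower; all 32 kept their sign, and the median SE over the members went from 0.150 to 0.235. With the adipocyte marker mean, which correlated with tissue within dogs at r = -0.939, the SE was 0.413, and no member and 0.0% of all tested genes were called. Of the 32 called members 25 kept their sign, with 7 of 23 rises and 0 of 9 falls reversed, and of all 80 members 24 changed sign. The median of the members was -0.22 in that fit, against 0.04 for all tested genes, and 49 members lay below 0, where 29 did without the covariate.

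Survival and tumour size were set against the level in the tumours for 81 members. No slope on survival was called by limma, and 0 members had an unadjusted p under 0.05, where 2.54% of all tested genes did. On tumour size 0 members were called, and 6 (7.41%) had an unadjusted p under 0.05, where 9.66% of all tested genes did. All 6 were lower in larger tumours. EIF5A2 had the smallest p, with a slope of -0.52 per cm (SE 0.13; adjusted p = 0.367), followed by EIF6 at -0.24 per cm (SE 0.07; adjusted p = 0.367).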

How the data were processed

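Total RNA of 13 carcinomas and 12 glands was hybridised as biotin-labelled cRNA, with 1 Affymetrix canine array each (labels' protocols). The authors deposited 1 normalized log2 value per probe set and array, from 0.86 to 16.66, with array medians of 3.56 to 3.77. The submitters' processing notes name Partek, GCRMA and RMA, with no versions or roles; the log2 scale was read from the values. The number of arrays limits the precision.

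Gene names came from the platform annotation. Entrez IDs of 216 of the 225 probe sets were found in a RefSeq table (assembly UU_Cfam_GSD_1.0), which changed 0 symbols. Of several tested probe sets of a gene, the brightest on average over 25 arrays stood for it. After removal of 111 control probe sets, tests covered probe sets above log2 4 on 6 or more of the 22 paired arrays (21553 probe sets, 8885 genes). limma 3.58.1 in R 4.3.3 (lmFit, eBayes with trend) was fitted with the dog as a block. Tests were 2-sided and Benjamini-Hochberg adjusted over all tested probe sets. Slopes on survival and size used tumours only, with probe sets above log2 4 in at least 4 of them. The script was tested on simulated data without a dog effect. For tumour versus gland it recovered 61% of changes of log2 1 and 84% of log2 2, with 8 false calls. A member that was not called is thus not shown to be unchanged.

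The labels number the dogs, so pairing comes from the animal; tumour and gland of a dog correlated in their deviations at 0.12 to 0.46, with -0.06 as the median between different dogs; 5 of 11 tumours matched their own gland best. Dogs were split by a muscle marker mean above log2 7 in the gland.

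The member rule used symbols and no measured value, but it, the roles and the lists were set with earlier results of these data known. Values were given in full for the 3 largest rises and 2 largest falls per role and for EEF1A1, EEF1A2, EEF2, EIF4E, EIF4EBP1 and EPRS1, other members by difference; EIF2S1, EIF2S3, EIF2B1, EIF3B, EIF5A and WARS1 were added in full after their values were seen. For list genes the 2 largest called changes were named. MTOR, ATF4 and NUPR1 were named in addition after their values were seen. Alternatives covered the block, filter, normalization, probe set rule, eBayes trend, muscle and fat markers and each dog left out. No sequences or coordinates were used here.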

Additional observations from a re-analysis of the deposited data

How the results depend on the processing

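Among the 32 called members, the sign held in each alternative in which the gene was tested except the fit with an adipocyte marker covariate, and 22 stayed called whichever single dog was left out. Without the replicate block the 22 paired arrays gave 19 rises and 7 falls, and all 25 arrays 18 and 8, against 23 and 9 in the paired analysis; 26 of the 32 calls were kept each time. A further quantile normalization gave 19 and 10, array medians 23 and 8, a filter at log2 6 gave 21 and 9 of 77, the mean over probe sets 24 and 9, and eBayes without trend 20 and 7. Centring on the median of the tested probe sets, chosen after seeing the data, gave 18 and 9.

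With no filter on low values there were 15 rises (6 of initiation factors, 5 of cytosolic synthetases); more probe sets then share the adjustment. The 5 dogs without muscle gave 0 rises in all, for initiation and for cytosolic synthetases, and 1, 1 and 0 falls; the 6 dogs with muscle gave 3, 1 and 0 rises and 0 falls. Either marker covariate gave 0 rises and 0 falls in each group. Leaving out a dog gave 16 to 24 rises and 7 to 10 falls in all, 7 to 11 and 4 to 5 for initiation, and 5 to 8 rises and an unchanged 2 falls for cytosolic synthetases. With the adipocyte covariate, which calls 0.0% of all tested genes, 24 of the 80 tested members changed sign; among the 36 genes followed here, signs reversed for EIF2S1 (-0.10), EIF2S2 (-0.38), IARS1 (-0.12), LARS1 (-0.49), SARS1 (-0.019), VARS1 (-0.19), YARS1 (-0.72), EEF1A1 (0.11) and EPRS1 (-0.29); the cause was not tested. With no filter EEF1A2 differed by -1.85 (adjusted p = 0.0932). Signals below log2 4 limit YARS2, EIF2AK2 and 1 gland value of EIF5A2.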
